A study of Mus musculus with 12 samples.

Results

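The integrin genes of macrophages described here were 10 of the 24421 gene symbols in the count table, chosen by name, though with earlier results of these data known. They were *Itgam*, *Itgax*, *Itgal* and *Itgb2*, which encode the leukocyte (β2) integrins and their shared β chain, *Itgb1* and its α partners *Itga4*, *Itga5*, *Itga6* and *Itgav*, and *Itgb5*, which pairs with *Itgav*. Bone marrow-derived macrophages (BMDMs) were grown for 5 days in M-CSF, the growth factor of macrophages, at 100 ng/mL, with a change of medium on day 3, from 3 C57BL/6 mice called A, B and C in the labels. Cells of each mouse were divided among 4 groups of 3 libraries each, so all 12 libraries were wild-type, unedited and M-CSF-cultured. Ovalbumin alone (Ova) or ovalbumin coated with rabbit anti-ovalbumin IgG (immune complex, IC) was given with the solvent DMSO or with iBET (I-BET151, 5.0 µM), a small molecule that occupies the acetyl-lysine pockets of BET bromodomain proteins. The exposure to Ova or IC was 4 hours, and each group is called by its drug and stimulus, as in iBET IC. By the labels both agents were added at once, whereas by the methods the drug came first and so was present for longer. The order could not be settled. RNA was sequenced in bulk, so fewer cells of a type and less RNA per cell cannot be told apart, and age and sex of these 3 mice were not given in the sources used here.

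Integrins are transmembrane receptors built from an α and a β chain, and a chain that lacks its partner is not brought efficiently to the cell surface. On macrophages, β2 integrins bind complement fragments and ICAMs and take part in the uptake of opsonized particles, whereas β1 and αv integrins bind matrix proteins such as fibronectin, laminin and vitronectin. Talin and kindlin proteins bind the β tail and switch the receptor to a state with high affinity for its ligand. Focal adhesion proteins then link it to actin.

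Libraries held 7549849 to 17387639 counts. Mouse A's DMSO Ova library had 77.4% of its counts on *Rn45s*, the 45S ribosomal RNA precursor, against 1.41% to 7.83% in the other 11, which left 1768133 counts for all other genes there and 7247830 to 16899110 elsewhere. Values that rest on this library are therefore also given without it where that changed a call. Levels below are in CPM, a gene's per-million share of the counts of its library, scaled by trimmed mean of M values (TMM), and log2 fold changes come from edgeR's quasi-likelihood test over 11468 genes, with Benjamini-Hochberg adjusted p-values and a gene called at an adjusted p under 0.05. All 10 integrin genes passed the filter on low counts. The cultures expressed all 9 macrophage markers examined, with a summed level of 5783 to 7852 CPM, which ran from 5783 to 7104 in the DMSO libraries and from 6531 to 7852 in the iBET libraries. In the same libraries the 7 neutrophil markers in the table summed to 7.70 to 50.7 CPM, the 6 dendritic cell markers to 0.451 to 1.55 CPM and the 6 stromal markers to 0.360 to 1.82 CPM. The 3 mast cell or basophil markers were at 0 in every library, as were the B cell gene *Pax5* and the platelet gene *Gp9*. The 8 lymphocyte markers together reached 0.337 CPM and the 4 platelet markers 1.10 CPM at most.

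Per kilobase of exon, *Itgb2* was the most abundant integrin transcript, at 315 CPM per kb (mean over 12 libraries; range 269 to 352). *Itgb1* (167; 157 to 182) and *Itgam* (153; 129 to 202) followed, and their ranges overlapped. *Itga5* (72.0; 39.8 to 129) and *Itgav* (70.3; 53.2 to 88.1) overlapped too, as did *Itga6* (38.1; 30.5 to 49.9) and *Itgb5* (30.8; 23.7 to 46.5). *Itga4* lay lower, at 7.81 CPM per kb, and *Itgax* (3.06) and *Itgal* (1.47) were lowest, with overlapping ranges. These lengths are unions of annotated exons, so a gene with long alternative untranslated regions, such as *Itga4* with 13.978 kb, is placed low by its length. A level per kb is therefore a rough order. All tests between groups below were made within a gene, whereas the ratios and shares of transcripts given below also use these lengths.

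**Figure D1:**
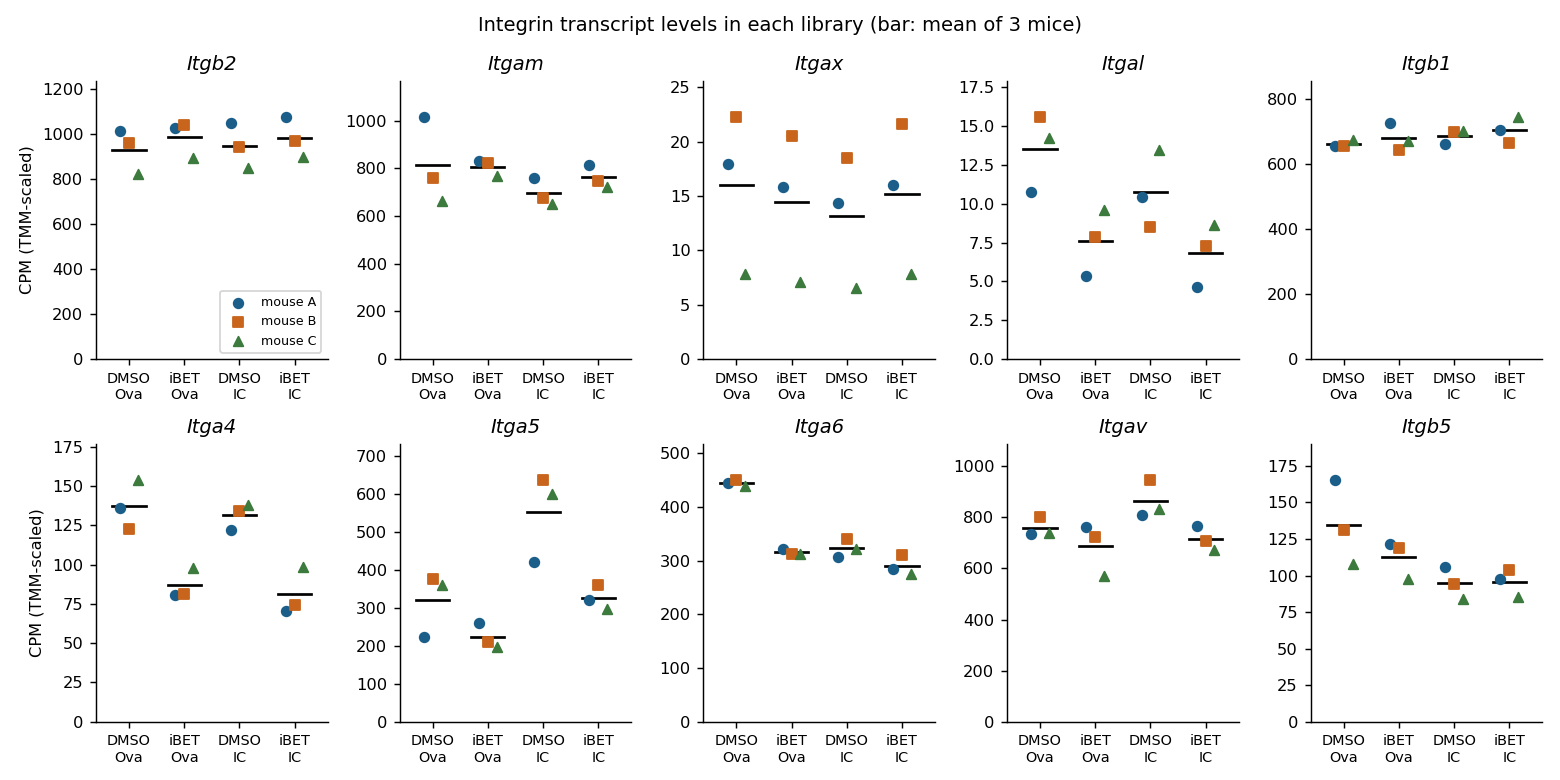
Level of each integrin gene in each of the 12 libraries, in TMM-scaled CPM on linear axes that start at 0, by group (DMSO or iBET, Ova or IC). Points are mice A, B and C and bars are means of 3. The *Itga4* points of the iBET groups lie between 70.7 and 98.4 CPM, below all 6 DMSO points, and mouse C is lowest for *Itgax* in every group.

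The study used iBET to ask how BET proteins shape the response of macrophages to IgG complexes. The integrin transcripts called for the drug in these libraries by the unblocked edgeR fit all encode α chains, as do most of the 10 members. With Ova, 3 of the 10 genes fell (*Itgal*, *Itga4* and *Itga6*) and none rose, beside 31.3% of all genes tested being called, 14.2% lower and 17.1% higher. With IC, 2 of the 10 fell (*Itga4* and *Itga5*) and none rose, beside 34.8% of all genes called, 15.8% lower and 19.0% higher. The share of members called was thus near or below the share of all genes. The median log2 fold change of the 10 was -0.19 with Ova and -0.07 with IC, against 0.02 and -0.00 over all genes tested. Groups did not overlap for 3 of the 10 genes with Ova and for 3 with IC, beside 45.1% and 48.6% of all genes. None of the 3 β genes was called with iBET in either stimulation by this fit, whereas DESeq2 with mouse as a replicate block called *Itgb5* with Ova (-0.27, adjusted p = 0.0439).

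*Itga4* encodes α4, the chain that pairs with β1 to bind VCAM-1 and an alternatively spliced segment of fibronectin. Its level was 136, 123 and 154 CPM in the DMSO Ova libraries of mice A, B and C, and 80.6, 81.5 and 98.0 CPM with iBET Ova. In IC the levels were 122, 134 and 138 CPM in DMSO and 70.7, 74.3 and 98.4 CPM in iBET. All 6 iBET libraries were below all 6 DMSO libraries. The log2 fold change was -0.67 (SE 0.14, edgeR adjusted p = 0.00329) with Ova and -0.70 (SE 0.14, edgeR adjusted p = 0.00204) with IC, lower in 3 of 3 mice each time. IC itself gave log2 fold changes of -0.07 in DMSO and -0.10 in iBET, neither called. Only without mouse B were both *Itga4* calls lost among 25 alternatives (log2 fold changes -0.70 and -0.62, edgeR adjusted p = 0.0611 and 0.0720), and adjusted p ran from 3.44e-08 to 0.0611 and from 1.02e-09 to 0.0720. *Cerkl*, on the opposite strand, overlaps *Itga4* and the strand setting of the counting was not stated, but it had at most 19 counts in a library.

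Promoter windows of 300 bases, from 250 before to 50 after the start, were taken from RefSeq (GRCm38.p6), which held them for 7 of the 10 genes. That of *Itga4* is printed because it was the member called in the same direction with iBET in both stimulations. *Itga5*, called with IC, and *Itgb1*, the β partner of both, which was not called in any comparison, are printed beside it and were chosen after their values were seen. The windows are chr2:79255176-79255475 on the plus strand, chr15:103366742-103367041 on the minus strand and chr8:128685404-128685703 on the plus strand, and capitals mark the 6-base motifs searched on both strands: GAGGAA (a core of PU.1 sites; TTCCTC in reverse), TGTGGT (a core of RUNX sites; ACCACA in reverse), GGGCGG (a core of Sp1 sites; CCGCCC in reverse) and CACGTG (the E-box).
Itga4: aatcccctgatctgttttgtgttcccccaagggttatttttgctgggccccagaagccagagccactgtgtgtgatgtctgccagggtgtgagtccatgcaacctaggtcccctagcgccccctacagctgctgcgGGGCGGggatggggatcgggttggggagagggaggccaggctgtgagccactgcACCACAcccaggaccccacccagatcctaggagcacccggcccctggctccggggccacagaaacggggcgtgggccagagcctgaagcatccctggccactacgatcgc
Itga5: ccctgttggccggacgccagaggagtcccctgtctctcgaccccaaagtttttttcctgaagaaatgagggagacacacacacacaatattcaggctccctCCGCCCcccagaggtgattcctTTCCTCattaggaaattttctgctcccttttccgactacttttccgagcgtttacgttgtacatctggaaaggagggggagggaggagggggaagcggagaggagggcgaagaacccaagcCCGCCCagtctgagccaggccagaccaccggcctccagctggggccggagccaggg
Itgb1: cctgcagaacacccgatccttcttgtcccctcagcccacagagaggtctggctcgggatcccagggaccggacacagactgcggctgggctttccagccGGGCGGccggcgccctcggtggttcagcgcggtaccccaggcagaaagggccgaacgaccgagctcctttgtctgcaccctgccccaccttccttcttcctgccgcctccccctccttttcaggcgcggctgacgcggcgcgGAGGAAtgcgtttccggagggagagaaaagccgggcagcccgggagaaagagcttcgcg
The *Itga4* window held an Sp1 core 114 bases and a RUNX core 60 bases before the start. *Itga5* held Sp1 cores 149 and 6 bases and a PU.1 core 127 bases before its start, and *Itgb1* an Sp1 core at 151 bases and a PU.1 core at 9 bases. Of the 7 windows, 6 held an Sp1 core, 4 a PU.1 core, 2 a RUNX core and 0 an E-box. Over all 32817 promoters of this length in the RefSeq table the shares were 35.6%, 28.3%, 16.8% and 7.15%. PU.1 cores numbered 3 in *Itgam*, 2 in *Itgav*, 1 in *Itga5* and in *Itgb1*, and 0 in *Itga4*, *Itgax* and *Itgb5*. Of all genes, 31.3% were called for iBET with Ova and 34.8% with IC. Among the 9 macrophage markers iBET raised 1 and lowered 1 with Ova and raised 2 and lowered 1 with IC (median log2 fold changes 0.13 and 0.27). The one that fell was *Spi1*, which encodes PU.1 (log2 fold change -1.54 with Ova, SE 0.12, edgeR adjusted p = 2.34e-06, and -1.75 with IC, SE 0.12, edgeR adjusted p = 7.61e-07); its part in the integrin values was not tested.

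*Itga6* encodes α6, a laminin-binding partner of β1. The 3 DMSO Ova libraries stood at 445, 451 and 439 CPM (mice A, B and C), and the other 9 lay between 275 and 340 CPM. With iBET Ova the values were 323, 313 and 313 CPM, with DMSO IC 307, 340 and 322 CPM, and with iBET IC 284, 311 and 275 CPM. *Itga6* was thus highest in the DMSO Ova library of every mouse. The iBET effect with Ova was -0.49 on the log2 scale (SE 0.084, edgeR adjusted p = 0.000885, 3 of 3 mice), and with IC it was -0.16 (SE 0.084, edgeR adjusted p = 0.168). The IC effect was -0.46 in DMSO (SE 0.084, edgeR adjusted p = 0.0226, 3 of 3 mice) and -0.13 in iBET (SE 0.084, edgeR adjusted p = 0.812).

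Both called changes of *Itga6* use the same DMSO Ova libraries, so they are not independent of each other. The difference between the arms was 0.33 on the log2 scale (SE 0.12; 95% interval 0.08 to 0.59), positive in 3 of 3 mice (0.35, 0.39 and 0.26), with an edgeR adjusted p = 0.9999. When mouse A's DMSO Ova library, in which *Rn45s* was high, was left out, both called changes held (-0.54, edgeR adjusted p = 0.00131, and -0.48, edgeR adjusted p = 0.0371). The iBET call with Ova was lost only without mouse B (-0.47, edgeR adjusted p = 0.0549) among 25 alternatives, in which it ran from 1.24e-08 to 0.0549. The IC call was lost in 9 of 25 alternatives (adjusted p 1.01e-05 to 0.644), among them the fit of DMSO Ova and DMSO IC alone (-0.46, edgeR adjusted p = 0.247), each fit without a mouse, and those without the Ova libraries of mouse B (DMSO or iBET) or C (DMSO) or the DMSO IC libraries of mouse A or C. Noncoding transcripts and a pseudogene overlap *Itga6* on both strands, so its counts carry that uncertainty.

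*Itga5* encodes α5, which with β1 forms the main fibronectin receptor. Its level was highest in DMSO IC, at 422, 637 and 600 CPM in mice A, B and C, against 224, 377 and 361 CPM in DMSO Ova. With iBET the levels were 321, 359 and 298 CPM in IC and 260, 209 and 197 CPM in Ova. IC libraries were above Ova libraries of the same drug without overlap in both arms, and within IC the iBET libraries lay below the DMSO libraries. In Ova the iBET library of mouse A was above its DMSO library, while those of mice B and C were below.

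With IC, iBET lowered *Itga5* by a log2 fold change of -0.76 (SE 0.20, edgeR adjusted p = 0.0120, 3 of 3 mice). With Ova the change was -0.54 (SE 0.20, edgeR adjusted p = 0.0637; 0.22, -0.85 and -0.88 in mice A, B and C), and it reached -0.78 (edgeR adjusted p = 0.00558) without mouse A's DMSO Ova library and -0.57 (adjusted p = 0.0364) in DESeq2, with 9.88e-05 to 0.421 over 25 alternatives. The IC effect on *Itga5* was 0.78 in DMSO (SE 0.20, edgeR adjusted p = 0.102) and 0.56 in iBET (SE 0.20, edgeR adjusted p = 0.506), higher in 3 of 3 mice each time but not called. DESeq2 called the former (0.78, adjusted p = 0.0227; 0.00339 to 0.858 over 25 alternatives), and both were called without mouse A (0.75 and 0.72, edgeR adjusted p = 0.00628 and 0.00657). The iBET call with IC was lost without mouse B (-0.72, edgeR adjusted p = 0.116) or mouse C (-0.64, edgeR adjusted p = 0.143). The difference between arms was -0.22 (95% interval -0.85 to 0.40).

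*Itgal* encodes αL, which with β2 forms LFA-1, the ICAM receptor best known from lymphocytes. It was the least abundant member, with 21 to 203 counts in a library. Levels were 10.8, 15.6 and 14.3 CPM in DMSO Ova and 5.32, 7.83 and 9.59 CPM in iBET Ova (mice A, B and C), with no overlap. In IC they were 10.4, 8.47 and 13.4 CPM in DMSO and 4.64, 7.27 and 8.63 CPM in iBET, where mouse C with iBET reached mouse B without it. The log2 fold change was -0.89 with Ova (SE 0.28, edgeR adjusted p = 0.0269, 3 of 3 mice) and -0.68 with IC (SE 0.27, edgeR adjusted p = 0.0698, 3 of 3 mice). With mouse as a replicate block in edgeR the IC value was called (-0.70, adjusted p = 0.0123; 0.0080 to 0.254 over 25 alternatives), and so it was without the iBET IC library of mouse C. The Ova call was lost without mouse B (-0.80, edgeR adjusted p = 0.231; 0.00146 to 0.231 over 25 alternatives), and without any of the Ova libraries of mouse B (DMSO or iBET), mouse C (DMSO) or mouse A (iBET). The 8 lymphocyte markers summed to 0 to 0.337 CPM in the same libraries.

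**Figure D2:**
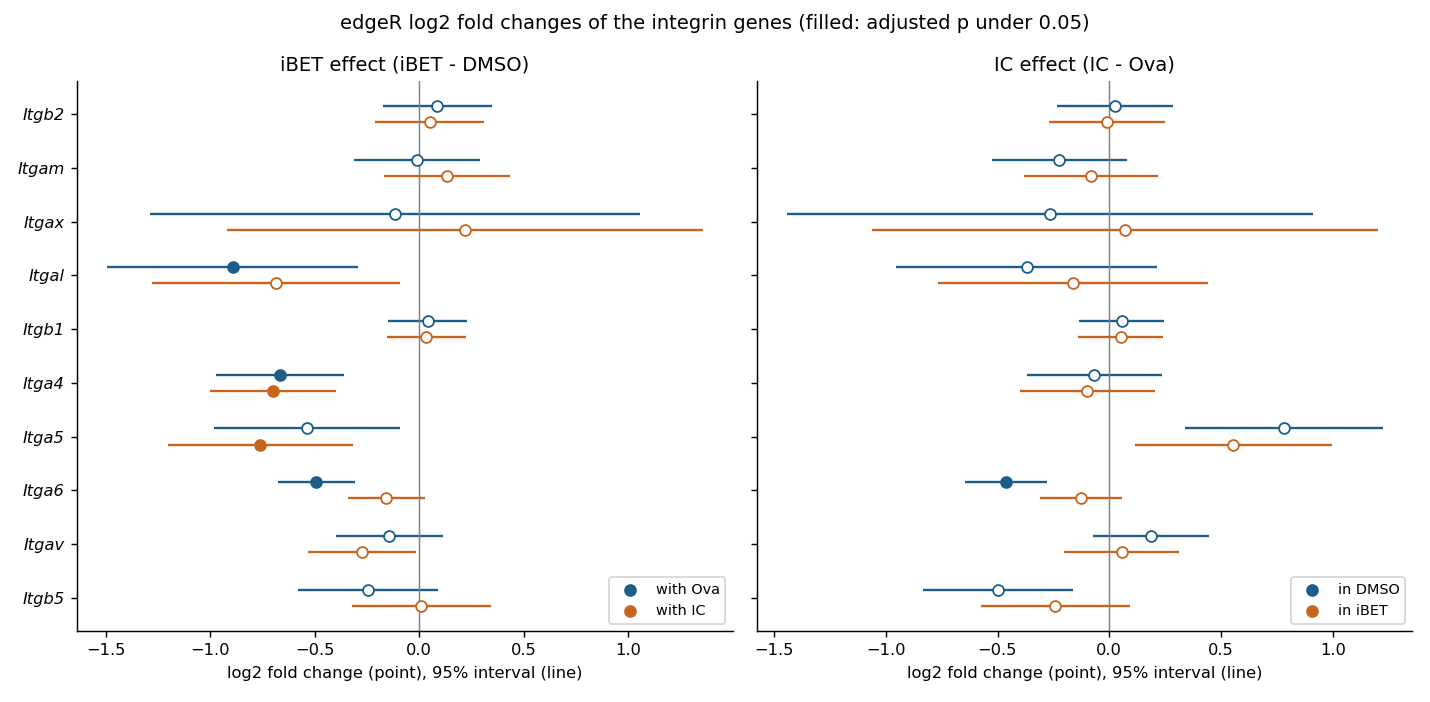
edgeR log2 fold changes (points) with 95% intervals (lines) for the 10 integrin genes, with the iBET effect in Ova and IC on the left and the IC effect in DMSO and iBET on the right, 3 mice a group. Filled points have an adjusted p under 0.05: on the left *Itgal*, *Itga4* and *Itga6* with Ova and *Itga4* and *Itga5* with IC, and on the right *Itga6* in DMSO.

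*Itgam* encodes αM (CD11b), which with β2 forms complement receptor 3, and *Itgb2* the common β2 chain (CD18). *Itgam* stood at 1014, 759 and 663 CPM in DMSO Ova, 829, 820 and 767 in iBET Ova, 758, 677 and 650 in DMSO IC and 814, 747 and 724 in iBET IC (mice A, B and C). *Itgb2* was at 931 ± 98.7, 988 ± 80.2, 948 ± 99.1 and 981 ± 89.0 CPM in the same groups (SD, n = 3). The groups overlapped for both genes in every comparison. For iBET the 95% interval of the log2 fold change was -0.31 to 0.29 with Ova and -0.17 to 0.43 with IC for *Itgam*, and -0.17 to 0.35 and -0.21 to 0.31 for *Itgb2*. None of these changes was called by the unblocked edgeR fit (adjusted p = 0.486 or more), but with 1 surrogate variable *Itgam* was called higher with iBET in IC (0.23, adjusted p = 0.0343). Part of the *Itgam* locus is shared with the annotated same-strand gene *Gm49368*, so reads there may have been assigned by a rule that is not stated.

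*Itgax* encodes αX (CD11c), the β2 partner known as a marker of dendritic cells and of some tissue macrophages. Levels followed the mouse: 14.3 to 18.0 CPM in the 4 libraries of mouse A, 18.5 to 22.2 in mouse B and 6.58 to 7.79 in mouse C. Group means were 13.1 ± 6.04 CPM in DMSO IC, 14.5 ± 6.80 in iBET Ova and 15.1 ± 6.95 in iBET IC (SD, n = 3), and the mean was highest in DMSO Ova, with 18.0, 22.2 and 7.79 CPM in mice A, B and C. The SE of each log2 fold change was therefore wide, from 0.52 to 0.54, and no comparison was called. Within mice the differences were narrow. For IC in DMSO they were -0.33, -0.26 and -0.24, and for iBET with IC 0.16, 0.22 and 0.24. With mouse as a replicate block in edgeR the adjusted p was 0.321 for the former and 0.184 for the latter. The summed neutrophil markers also followed the mouse, at 7.70 to 15.4 CPM in mouse A, 18.4 to 42.5 in mouse B and 41.2 to 50.7 in mouse C. The summed dendritic cell markers lay between 0.451 and 1.55 CPM in all 3 mice. Of these 6 markers, 1 passed the filter, and it was called higher with iBET in Ova (log2 fold change 3.38), beside 31.3% of all genes called. Its groups overlapped in that comparison, and all 6 markers together reached at most 1.39 CPM in iBET Ova, so its counts were low. The part of these markers in the *Itgax* values was not tested.

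*Itgb1* was the steadiest member, at 660 ± 11.0 CPM in DMSO Ova, 679 ± 42.5 in iBET Ova, 687 ± 22.7 in DMSO IC and 703 ± 39.3 in iBET IC (SD, n = 3). Its 4 log2 fold changes lay between 0.03 and 0.06, and their 95% intervals between -0.15 and 0.25. *Itgav*, the αv chain that pairs with β1, β5 and other β chains, was at 758 ± 36.7, 687 ± 101, 863 ± 73.6 and 714 ± 47.5 CPM in the same order. Its highest values were those of DMSO IC (808, 946 and 835 CPM in mice A, B and C), which did not overlap with DMSO Ova (734, 800 and 740) or with iBET IC (765, 707 and 671). The iBET change with IC was -0.27 (SE 0.12, edgeR adjusted p = 0.0939), and with mouse as a replicate block it was called (-0.27, adjusted p = 0.0449; 0.0281 to 0.484 over 25 alternatives), as it was without mouse A (-0.38, edgeR adjusted p = 0.0336). A noncoding transcript and a pseudogene overlap *Itgav* on the opposite strand.

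*Itgb5*, whose product pairs with αv to bind vitronectin and the bridging protein MFG-E8 on dying cells, was at 165, 131 and 108 CPM in DMSO Ova (mice A, B and C) and 106, 94.5 and 84.3 CPM in DMSO IC. All 3 DMSO IC values lay below the 3 DMSO Ova values. The log2 fold change was -0.50 (SE 0.15, edgeR adjusted p = 0.173, lower in 3 of 3 mice), and with mouse as a replicate block it was called (-0.49, adjusted p = 0.0212; 0.000869 to 0.953 over 25 alternatives). With iBET, levels were 122, 119 and 97.5 CPM in Ova and 97.4, 104 and 85.1 CPM in IC, and the IC change was -0.24 (SE 0.15, edgeR adjusted p = 0.803). The iBET changes were -0.25 with Ova (SE 0.15, edgeR adjusted p = 0.251) and 0.01 with IC (SE 0.15, edgeR adjusted p = 0.970).

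Across the 10 genes, IC in DMSO gave 1 call, the fall of *Itga6*, beside 1.22% of all genes, and 4 of the 10 had groups that did not overlap (*Itga5* and *Itgav* higher, *Itga6* and *Itgb5* lower), beside 15.3% of all genes. With mouse as a replicate block 2 were called, *Itga6* and *Itgb5*, beside 2.75% of all genes in that fit. In iBET edgeR called 0 of the 10 for IC, beside 0.349% of all genes, with 1 at an unadjusted p under 0.05 (*Itga5*) and 0 in DESeq2. There 2 of the 10 did not overlap (*Itga5* higher, *Itga6* lower), beside 18.9% of all genes. The same block gave 4 calls for iBET with IC (*Itgal*, *Itgav*, *Itga4* and *Itga5*, all lower), beside 42.1% of all genes. The IC responses in the 2 drug arms differed for 0 of the 10 genes in edgeR, beside 0% of all genes, with 1 at an unadjusted p under 0.05 (*Itga6*) and 0 in DESeq2.

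The α to β ratio within each library, in CPM per kb, does not depend on the scaling between libraries. *Itga4* to *Itgb1* was -4.04 ± 0.14 on the log2 scale in DMSO Ova and -4.16 ± 0.05 in DMSO IC, against -4.75 ± 0.20 in iBET Ova and -4.90 ± 0.20 in iBET IC (SD, n = 3). *Itga5* to *Itgb1* ran from -1.89 ± 0.14 in iBET Ova through -1.38 ± 0.22 in iBET IC and -1.35 ± 0.41 in DMSO Ova to -0.61 ± 0.27 in DMSO IC. *Itga6* to *Itgb1* was -1.72 ± 0.04 in DMSO Ova and -2.23 ± 0.05 in DMSO IC, -2.24 ± 0.07 in iBET Ova and -2.42 ± 0.17 in iBET IC. *Itgav* to *Itgb5* was higher in DMSO IC (1.59 ± 0.22) than in DMSO Ova (0.91 ± 0.32), and 1.00 ± 0.05 and 1.31 ± 0.12 in iBET Ova and iBET IC. *Itgam* to *Itgb2* stayed between -0.93 and -1.16 in the 4 groups. These ratios are a description and were not tested.

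Among the 4 β1 partners counted together per kb, *Itga5* made up 33.0% ± 5.82 in DMSO Ova and 46.8% ± 4.18 in DMSO IC, and 29.9% ± 1.87 and 38.7% ± 1.82 in the iBET groups (SD, n = 3). *Itga6* made up 25.5% ± 2.64 in DMSO Ova, 15.2% ± 1.34 in DMSO IC, 23.5% ± 2.09 in iBET Ova and 18.8% ± 0.57 in iBET IC. *Itgav* took 34.0% to 42.4% and *Itga4* 3.43% to 5.09% as group means. Among the β2 partners *Itgam* took 96.7% to 97.5% of the sum in all groups. These are shares of transcripts and not of receptors, and the share of a gene also moves when the level of another partner changes.

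**Figure D3:**
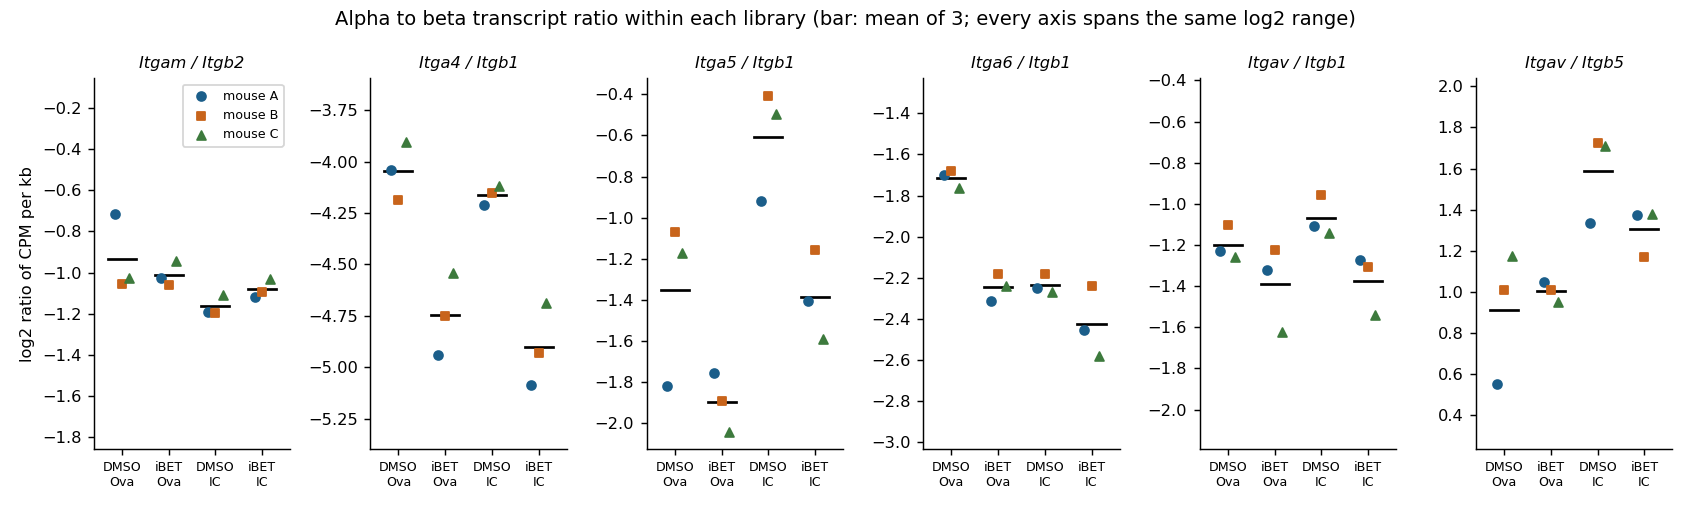
Log2 ratio of an α to a β integrin transcript within each library, in CPM per kb, for 6 pairs in the 4 groups, with points for mice A, B and C, bars for means of 3 and axes of equal log2 span. *Itga4* to *Itgb1* is lower in both iBET groups (-4.75 and -4.90) than in both DMSO groups (-4.04 and -4.16), and *Itga5* to *Itgb1* is highest in DMSO IC (-0.61).

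Of the other 17 integrin genes in the table, 6 passed the filter, and the remaining 11 had at most 9 counts in a library. *Itgb7*, which pairs with α4, was the most abundant by counts (59.7 to 81.4 CPM), and its changes with iBET were -0.05 with Ova and -0.13 with IC (edgeR adjusted p = 0.777 and 0.424). edgeR called 0 of the 6 in every comparison, with 1 at an unadjusted p under 0.05 (*Itga9*, iBET with Ova, -0.97, adjusted p = 0.0739). DESeq2 called it (-1.04, adjusted p = 0.0317). With mouse as a replicate block it was called with Ova (-0.99, adjusted p = 0.000601) and with IC (-0.69, adjusted p = 0.00348). *Itga9* was named after its values were seen.

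Genes that activate integrins or link them to actin moved in both directions with iBET. Of 27 listed, 23 passed the filter: with Ova 5 rose and 6 fell, and with IC 5 rose and 7 fell, with medians of -0.09 and -0.01. Over all genes the shares were 17.1% higher and 14.2% lower with Ova and 19.0% and 15.8% with IC. *Vcl*, encoding the actin linker vinculin, rose from 66.8 ± 5.81 to 155 ± 16.5 CPM with Ova (log2 fold change 1.21, SE 0.11, edgeR adjusted p = 1.01e-05) and from 67.7 ± 6.10 to 180 ± 10.2 CPM with IC (1.41, SE 0.11, edgeR adjusted p = 2.63e-06, SD, n = 3). *Zyx*, encoding the focal adhesion protein zyxin, rose by 0.70 and 0.69. *Fgr*, a Src-family kinase of myeloid integrin signalling, fell, with log2 fold changes of -2.92 with Ova and -2.63 with IC, and *Ptk2b*, encoding the focal adhesion kinase relative Pyk2, fell too (-0.72 and -0.61). All of these calls held in every alternative except those of *Ptk2b*, lost without mouse B with Ova (adjusted p = 0.0649) and without mouse C with IC (adjusted p = 0.0856), and *Fgr* was not tested under the filter of at least 10 counts in every library.

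**Figure D4:**
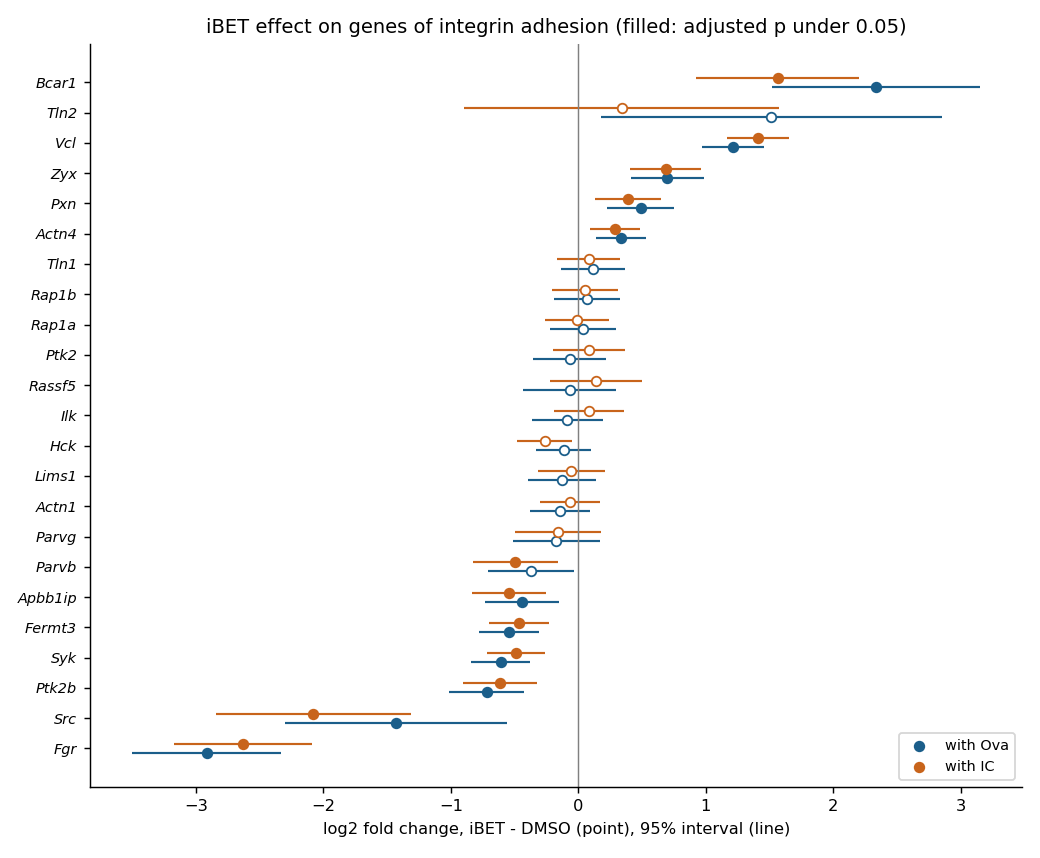
edgeR log2 fold change with iBET (points) and 95% interval (lines) for the 23 tested genes of integrin activation and adhesion, with Ova and with IC, 3 mice a group, ordered by the value with Ova. Filled points have an adjusted p under 0.05. *Vcl* lies to the right of 0 (1.21 and 1.41) and *Fgr* to the left (-2.92 and -2.63).

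With IC, edgeR called 0 of these 23 genes in either drug arm, with 3 and 2 at an unadjusted p under 0.05 in DMSO and iBET and 0 in DESeq2, and *Src* was called in DMSO with mouse as a replicate block. Among 4 genes whose products hold integrins in the inactive state, iBET raised *Flna*, encoding filamin A, by 0.59 with IC (SE 0.14, edgeR adjusted p = 0.00543), and 0 were called with Ova, with 1 at an unadjusted p under 0.05 and 0 in DESeq2. The call with IC was lost without mouse B (0.56, edgeR adjusted p = 0.115), and with the block *Flna* was called with Ova too (0.38, adjusted p = 0.00494). The list median was -0.03 in both stimulations.

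Of 20 listed ligand genes, 10 passed the filter. *Icam1*, encoding the β2 ligand ICAM-1, was at 88.0 ± 11.3 CPM in DMSO Ova and 209 ± 37.6 CPM in DMSO IC (SD, n = 3), a rise of 1.24 on the log2 scale (SE 0.14, edgeR adjusted p = 0.00142). In the iBET arm it rose by 1.33 (SE 0.14, edgeR adjusted p = 0.00118), from 97.9 ± 5.79 to 246 ± 20.1 CPM. No other ligand was called for IC in either arm by this fit. These calls were lost without mouse B or C, and in DMSO also in the fit of the compared groups alone (adjusted p up to 0.308 and 0.323). With iBET, 2 ligands rose and 1 fell with Ova, and 1 rose and 1 fell with IC, of 10 tested, beside 31.3% and 34.8% of all genes called. *Tgfb1*, whose latent form binds αv integrins, rose by 0.73 and 0.76. *Thbs1*, encoding the matrix protein thrombospondin 1, fell (log2 fold changes -1.31 and -1.91). Its call with Ova was lost in 7 of 25 alternatives (adjusted p up to 0.196), among them the fit without mouse A's DMSO Ova library (-1.12, edgeR adjusted p = 0.0892), and its call with IC was lost without mouse B (-1.85, edgeR adjusted p = 0.0927). *Lamc1*, a laminin chain, rose by 0.42 with Ova (edgeR adjusted p = 0.0417), a call that held in 10 of 25 alternatives (adjusted p 0.00240 to 0.250) and was lost without mouse A's DMSO Ova library (0.33, edgeR adjusted p = 0.154). With the block 5 ligands were called with Ova, beside 38.3% of all genes. The list medians with iBET were 0.29 and 0.20.

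The genes whose pattern over the 12 libraries lay closest to *Itgb1* were *Tnpo3*, *Wipf2* and *Ube2d2a*, with root mean square differences of centred log2 CPM of 0.045, 0.048 and 0.057 among 9427 genes compared. Closest to *Itgb2* were *Prkaa1*, *Grb2* and *Cul3* (0.056, 0.068 and 0.071). *Itgb1* and *Itgb2* themselves deviated from their means by 0.063 and 0.120. The genes closest to *Itgb1* deviated from theirs by 0.069 to 0.086, and those closest to *Itgb2* by 0.098 to 0.123.

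In the GRCm38 (mm10) annotation of GENCODE vM21, *Itgal* (chr7:127296260-127335138), *Itgam* (chr7:128062640-128118491) and *Itgax* (chr7:128129547-128150657) lie on the plus strand of 1 chromosome, with 727.501 kb and 38 protein-coding genes between *Itgal* and *Itgam*, and 11.055 kb and no protein-coding gene between *Itgam* and *Itgax*. *Itgad* starts 3.718 kb beyond *Itgax*, and had at most 24 counts in a library. *Itga6* (chr2:71745616-71858416), *Itga4* (chr2:79255426-79333123) and *Itgav* (chr2:83724397-83806916) share chromosome 2 but lie 7397 and 4391 kb apart, with 49 and 13 protein-coding genes between them. The 3 members on chromosome 7 differed in level per kb, at 153 (*Itgam*), 3.06 (*Itgax*) and 1.47 (*Itgal*), and 1 of them, *Itgal*, was called with iBET. *Itga5* (chr15:103344286-103366763) is on the minus strand, and *Itgb1* (chr8:128685654-128733200), *Itgb2* (chr10:77530252-77565708) and *Itgb5* (chr16:33829665-33949338) are on the plus strand.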

How the data were processed

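RNA-seq of 12 BMDM libraries (4 groups, 3 mice) was analysed. The authors prepared libraries with a SMARTer pico input kit and, per the labels and methods, trimmed reads with Trim Galore, aligned them to mm10 with HISAT2 and counted reads per gene with featureCounts. The annotation, strand and multimapping settings are not given in the sources used here. The deposited table of raw counts was the input of all tests, and the deposited normalized signal (the same counts divided by size factors) served only in an alternative. Genes were filtered with filterByExpr (minimum count 10) and TMM-scaled. They were tested in edgeR 4.0.16 (R 4.3.3) with robust quasi-likelihood fits, 1 term per group, two-sided, with Benjamini-Hochberg adjustment over 11468 genes.

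Alternatives were DESeq2 1.42.0, DESeq2 size factors, no filter, a filter of 10 counts in every library, mouse as a replicate block, 1 surrogate variable (sva 3.50.0), the compared groups alone, limma 3.58.1 on log2(normalized signal + 1), removal of *Rn45s*, and leaving out each library or mouse. Replicate numbers are the mice, per the labels. Deviations from group means of same-mouse libraries correlated at -0.07 to 0.54 (median 0.26, 18 pairs), against a median of -0.13 for 36 pairs of different mice. Deviations cancel out within a group, so the value for different mice largely follows from the other and is no separate observation. A separate culture was not stated for each library of a mouse, so p-values measure the spread between these libraries. The unblocked fit was the main fit, so its SEs and p-values ignore the pairing by mouse. Calls of members that changed with the block in edgeR are given beside it.

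The members and lists were chosen with earlier results of these data known. Every member is named; from each list of other integrins, adhesion machinery, inhibitors and ligands, the 2 largest rises and 2 largest falls per comparison were named among called genes that averaged 50 counts or more and moved 1 way in 3 of 3 mice. All lists were also read without a list test. The test code was checked on simulated data.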

Additional observations from a re-analysis of the deposited data

Results flagged for a closer look

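*Itgax* was flagged because all 3 mice moved one way in one arm and the opposite way in the other. For IC its log2 fold change was -0.27 in DMSO (lower in 3 of 3 mice) and 0.0701 in iBET (higher in 3 of 3 mice). For iBET it was -0.12 with Ova (lower in 3 of 3) and 0.22 with IC (higher in 3 of 3). These 4 values rest on the same 12 libraries. The difference between the arms in the unblocked edgeR fit was 0.34 (SE 0.74, 95% interval -1.30 to 1.97, unadjusted p = 0.66, adjusted p = 0.9999). That SE includes the spread between mice. Within mice A, B and C the difference was 0.34, 0.34 and 0.37. With mouse as a replicate block in edgeR it was 0.34 (adjusted p = 0.9998).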

How the results depend on the processing

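Of 50 member comparisons, 29 kept their sign in every alternative and 21 did not. None of the called changes was among the 21, and the largest log2 value among them was 0.34. Counts close to those of the main fit are left out here. The main fit called 140, 3593 and 3987 of all genes (IC in DMSO, iBET with Ova, iBET with IC). With DESeq2, 2 members were called for IC in DMSO and 1 other integrin gene for iBET with Ova. Of all genes, DESeq2 called 265 and 3573 there. Both DESeq2 and the fit with 1 surrogate variable also called *Itga5* for iBET with Ova. With mouse as a replicate block in edgeR, 2 members were called for IC in DMSO and 4 for iBET with IC, and the lists gave 1 adhesion gene (IC in DMSO), 1 other integrin (iBET, either stimulation), 1 inhibitor and 5 ligands (iBET with Ova). The pairing changed no other call of a member in edgeR. Of all genes, this block called 315 for IC in DMSO, 4387 for iBET with Ova and 4829 for iBET with IC. The same block in DESeq2 called 3, 5 and 4 members (IC in DMSO, iBET with Ova, iBET with IC), 1 adhesion gene for IC in either arm, 2 ligands for IC in DMSO, 1 other integrin in either stimulation, and 1 inhibitor and 6 ligands for iBET with Ova. Of all genes, the block in DESeq2 called 425 for IC in DMSO, 4118 for iBET with Ova and 4636 for iBET with IC. With 1 surrogate variable 3 members were called for IC in DMSO and 4 for iBET with IC, with 1 adhesion gene and 1 inhibitor. That fit called 504, 4732 and 4914 of all genes (IC in DMSO, iBET with Ova, iBET with IC). The compared groups alone gave 0 members and 0 ligands for IC in DMSO, where 5 of all genes were called.

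Leaving out a library or a mouse gave 0 to 1 member called for IC in DMSO, 0 to 1 for IC in iBET, 0 to 4 for iBET with Ova and 0 to 3 for iBET with IC. Without mouse B it was 0 in each comparison, where 1310 and 1769 of all genes were called for iBET. Adhesion genes then numbered 4 to 13 with Ova and 6 to 13 with IC, other integrins 0 to 1, inhibitors 0 to 1 and ligands 1 to 4 for iBET and 0 to 1 for IC. Without mouse A, 3858 and 3852 of all genes were called for iBET with Ova and with IC, and without mouse C 2031 and 2497. The cause of these differences was not tested.

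Sign changes without a library or mouse had these ranges of log2 fold change. For IC in DMSO they were -0.65 to 0.20 (*Itgax*), -0.16 to 0.0266 (*Itga4*) and -0.0565 to 0.0983 (*Itgb2*). For IC in iBET they were -0.26 to 0.39 (*Itgax*), -0.37 to 0.0774 (*Itgal*), -0.0589 to 0.14 (*Itgav*), -0.000598 to 0.13 (*Itgb1*) and -0.0819 to 0.0489 (*Itgb2*). For iBET with Ova they were -0.14 to 0.13 (*Itgam*), -0.50 to 0.34 (*Itgax*) and -0.0443 to 0.0807 (*Itgb1*), and for iBET with IC -0.11 to 0.54 (*Itgax*), -0.0228 to 0.0874 (*Itgb1*), -0.0216 to 0.11 (*Itgb2*) and -0.0681 to 0.0854 (*Itgb5*). For the difference between arms they were -0.0141 to 0.27 (*Itgam*), -0.13 to 0.72 (*Itgax*), -0.0746 to 0.45 (*Itgal*), -0.19 to 0.0779 (*Itga4*), -0.0542 to 0.0462 (*Itgb1*) and -0.11 to 0.0463 (*Itgb2*).

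Sign also changed in values near 0. *Itgb2* for IC in iBET was 0.0014 with no filter, 0.0260 with 1 surrogate variable, 0.0018 in the compared groups alone and 0.0024 without *Rn45s*. *Itgam* for iBET with Ova was 0.0070 with the replicate block and 0.0943 with 1 surrogate variable, and *Itgb1* there was -0.0012 with DESeq2 size factors and -0.0053 in the compared groups alone. *Itgb5* for iBET with IC was -0.0200 in DESeq2, -0.0202 with the block there, -0.0211 both with DESeq2 size factors and with the stricter filter, and -0.0191 in limma. *Itgb1* for the difference between arms was 0.0015 in DESeq2, 0.0051 with its size factors, 0.000243 with the block in DESeq2, 0.0019 in limma and 0.0115 without *Rn45s*. Ratios with a prior count of 0.5 moved by less than their SD. Depth limits *Itgal* and *Itgax* most, with 21 and 35 counts at the lowest.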
